A study of Homo sapiens with 12 samples.

Results

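The genes described are 10 human transporters that carry copper, platinum drugs or drug conjugates across cell membranes: SLC31A1, SLC31A2, ATP7A, ATP7B, ABCC1, ABCC2, ABCC3, ABCC4, ABCC5 and ABCG2. They were taken by symbol from the array annotation, which gave 30 probe sets, groups of short probes that each read a stretch of transcript. The array holds 49395 probe sets and, after those with no single symbol were left out, 18132 genes. The study asked how loss of MARK2, a polarity kinase whose substrates include tau and other microtubule-associated proteins, alters expression in non-small cell lung cancer lines, and its title names cisplatin resistance as the setting. H1993 KD, H1693 KD and H1650 KD cells carried a lentiviral short hairpin RNA against MARK2, and H1993, H1693 and H1650 PLKO CONTROL cells carried the empty pLKO lentiviral vector. Each of the 6 groups had 2 arrays of total RNA, described by the submitters as biological replicates, and all cells had been transduced. The submitters chose the 3 lines for high MARK2. The sources used here do not give hairpin number or sequence, time after transduction or selection, and no group treated with a platinum drug was analysed here.

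Copper uptake in mammalian cells runs mainly through SLC31A1 (CTR1), a trimeric channel of the plasma membrane, while SLC31A2 (CTR2) lies largely on endosomal membranes. The P-type ATPases ATP7A and ATP7B load copper into the secretory pathway and move to vesicles or the cell surface to export it when copper is high. Cisplatin has been linked to both the uptake and the export proteins. The ABCC proteins (multidrug resistance proteins) use ATP to export organic anions, among them glutathione, glucuronide and sulfate conjugates, and ABCG2 (breast cancer resistance protein) exports a broad range of planar drugs and urate.

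Values are log2 signals, so a difference of 1 is a 2-fold difference in signal. Unless another is named, a gene is given by its brightest probe set, the one with the highest mean over the 12 arrays. Differences were tested with limma on one model of all 12 arrays, with p-values adjusted over all 16205 genes with a log2 signal of 5 or more on 2 arrays or more. A difference passed where its adjusted p was under 0.05. All 10 transporters were tested. Of their 30 probe sets, 29 reached the floor and 1 of ATP7B, at 3.54 to 4.04 on every array, did not. ABCC3 and ABCG2 reached it through H1993 and H1650 alone, since their brightest probe sets lay below 5 on all 4 H1693 arrays. In bulk cultures a change in the share of cells that express a gene and a change in RNA per cell cannot be told apart.

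MARK2 itself gave 6.76 and 6.77 in H1993 KD, against 9.17 and 9.06 in H1993 controls, a change of -2.35 (limma adjusted p = 6.47e-06). It gave 6.62 and 6.57 in H1693 KD, against 7.76 and 7.97 in H1693 controls, a change of -1.27 (adjusted p = 0.000258). In the cells labelled H1650 KD it gave 5.92 and 5.37, against 6.07 and 5.80 in H1650 controls, a change of -0.29 that did not pass (adjusted p = 0.156). Among controls, MARK2 signal was lowest in H1650. H1993 minus H1650 was 3.18 (limma adjusted p = 4.52e-08) and H1693 minus H1650 was 1.93 (adjusted p = 2.24e-06). The H1650 arrays also differed in RNA integrity: the 3' control probe set of GAPDH exceeded its 5' set by 6.82 ± 0.07 (log2, SD, n = 2) in H1650 KD and by 2.68 ± 0.56 (n = 2) in H1650 controls, while this difference lay between -0.12 and 0.02 on the 8 other arrays. In H1650 the hairpin and this difference move together and cannot be told apart, which holds for every H1650 KD value below and limits comparisons of control levels with H1650. All 6 epithelial markers read at least 5 on every array, with EPCAM at 12.48 to 13.43 and KRT18 at 13.83 to 15.02, while KRT7 and KRT8, with medians of 14.13 and 14.62, read 6.37 and 7.0 on their lowest arrays. Of the lung lineage markers NKX2-1 lay at 6.90 to 7.32 and NAPSA at 7.61 to 8.13. Of markers of other cell types, PTPRC and DCN were below 5 on all arrays. The leukocyte marker CD3E read 5.81 to 6.37, the fibroblast markers COL1A1 and PDGFRA 7.99 to 10.53 and 5.43 to 6.35, and the endothelial marker VWF 6.89 to 7.29. The part of such cells was not tested, and a signal above 5 is not by itself a sign of expression.

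Promoter sequence is shown for SLC31A1, whose changes differed in sign between lines, and for ATP7A and ABCC5, which rose in all 3 lines. The windows are RefSeq promoters of build GRCh38.p14, each 300 bases long across the gene's start and mostly before it, and 7 of the 10 transporters have an entry, with 13 windows. SLC31A2, ABCC1 and ABCC3 are named only. Capitals mark matches on either strand to the cyclic AMP response element (CRE) TGACGTCA, the antioxidant response element core TGACNNNGC, the GC box GGGCGG and the hypoxia core ACGTG. These motifs were chosen after values were seen, and the 2 that begin with TGAC can overlap each other.
SLC31A1, chr9:113221294-113221593 (+): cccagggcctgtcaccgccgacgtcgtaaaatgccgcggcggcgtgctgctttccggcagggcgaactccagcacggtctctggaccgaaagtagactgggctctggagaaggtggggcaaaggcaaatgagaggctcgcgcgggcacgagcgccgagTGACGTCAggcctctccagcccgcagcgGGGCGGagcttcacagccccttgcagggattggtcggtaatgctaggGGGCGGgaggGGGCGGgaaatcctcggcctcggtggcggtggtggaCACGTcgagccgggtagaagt
ATP7A, chrX:77910443-77910742 (+): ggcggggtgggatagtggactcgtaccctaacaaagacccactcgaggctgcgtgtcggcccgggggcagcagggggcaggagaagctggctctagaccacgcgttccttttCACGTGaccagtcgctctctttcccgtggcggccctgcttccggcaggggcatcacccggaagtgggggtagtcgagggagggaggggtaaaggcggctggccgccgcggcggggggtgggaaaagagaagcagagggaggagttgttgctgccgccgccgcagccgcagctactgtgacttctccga
ABCC5, chr3:184017835-184018134 (-): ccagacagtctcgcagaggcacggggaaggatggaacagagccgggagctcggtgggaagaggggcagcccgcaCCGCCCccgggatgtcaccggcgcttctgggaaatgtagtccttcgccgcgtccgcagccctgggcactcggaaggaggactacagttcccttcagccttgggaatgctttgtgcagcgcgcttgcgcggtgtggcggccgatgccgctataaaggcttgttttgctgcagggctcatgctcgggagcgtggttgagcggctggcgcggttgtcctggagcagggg
The SLC31A1 window holds a CRE at bases 159 to 166, 3 GC boxes from base 187 on and an ACGTG match at bases 280 to 284, with no overlap between motifs. In ATP7A the capitals are ACGTG read on both strands at bases 113 to 118, and in ABCC5 a GC box read on the other strand at bases 75 to 80. Of all 35116 RefSeq promoter windows, 1.85% hold the CRE, 13.3% the antioxidant response core, 45.0% the GC box and 21.4% the hypoxia core. Of the 13 transporter windows, 1, 2, 6 and 5 hold them, in that order of motifs. Some windows of ABCG2 and of ATP7B overlap, so the same GC boxes or hypoxia cores are counted in more than 1 window. A match describes these letters and is not evidence of binding, and a window without one says nothing about the factor.

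With MARK2 knocked down in H1993, 7 of the 10 transporters passed the test, 6 higher (ATP7A, ATP7B, ABCC2, ABCC3, ABCC5 and ABCG2) and 1 lower (SLC31A2). Over all genes tested in H1993, 33.4% passed, 18.9% higher and 14.5% lower. In H1693, 5 of the 10 passed, 4 higher (SLC31A1, ATP7A, ABCC2 and ABCC5) and 1 lower (ABCC4), beside 33.0% of all genes, 17.1% higher and 15.9% lower. In H1650 all 10 passed, 9 higher and SLC31A1 lower, beside 53.4% of all genes, 36.7% higher and 16.7% lower. The median change of the 10 transporters was 0.62, 0.03 and 0.74 in H1993, H1693 and H1650, and that of all genes tested was 0.02, -0.02 and 0.15. ATP7A, ABCC2 and ABCC5 rose in all 3 lines, ABCC2 with its H1693 signal at the floor, and SLC31A1, SLC31A2 and ABCC4 passed in opposite directions in different lines. The shares of all genes that rose in all 3 lines, or that passed in opposite directions, were not computed.

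**Figure D1:**
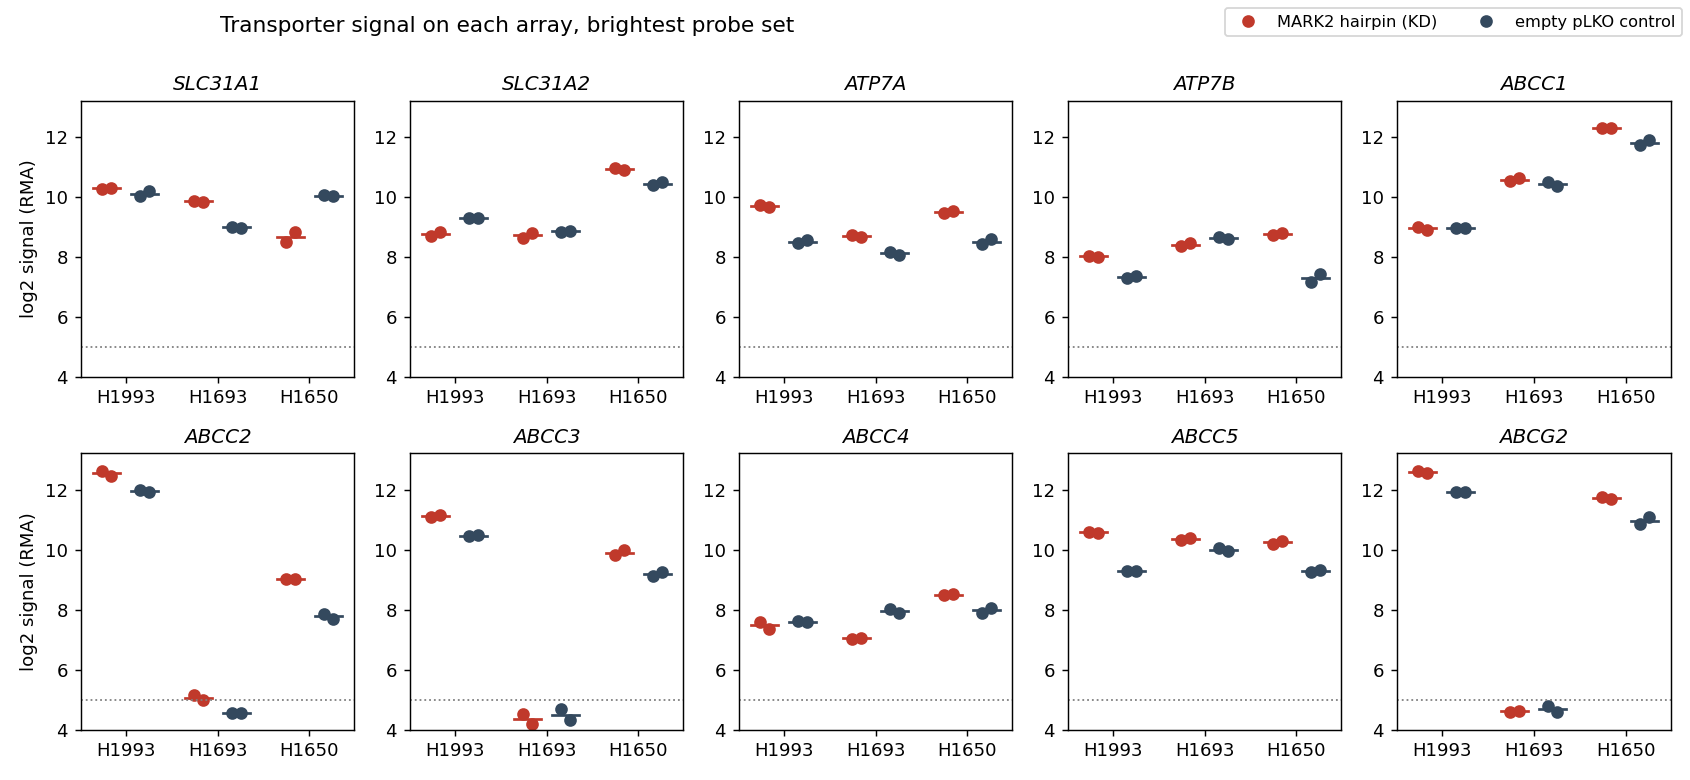
Log2 signal of the brightest probe set of each of the 10 transporters on every array (vertical axis), by line and group, with 2 arrays a group (points) and the group mean (bar); KD stands left of control in each line and the dotted line marks a log2 signal of 5. ABCC3 and ABCG2 lie below 5 on all H1693 arrays, and ATP7A lies higher on the KD arrays than on the control arrays of each line.

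Read by single probe sets, with p-values adjusted over the 38924 probe sets tested, 14 of the 29 transporter probe sets passed in H1993, 11 higher and 3 lower, beside 28.7% of all probe sets, 15.0% higher and 13.7% lower. In H1693, 11 of 29 passed, 6 higher and 5 lower, beside 29.1% of all, 15.7% higher and 13.4% lower. That H1693 count was 7 without H1693 KD replicate 1 and 18 with array weights. In H1650, 22 of 29 passed, 13 higher and 9 lower, beside 51.3% of all, 30.0% higher and 21.3% lower. The KD and control arrays did not overlap for 16 of 29 probe sets in H1993, 23 in H1693 and 26 in H1650, beside 63.2%, 68.4% and 71.4% of all probe sets. In H1993 and H1693 no transporter had probe sets that passed in both directions. In H1650, 5 did: SLC31A1, SLC31A2, ABCC1, ABCC3 and ABCC4. The share of all genes with sets passing in both directions was not computed. Over 5929 genes with 3 or more tested sets, the median SD between sets of a gene was 0.14 in H1993 and H1693 and 0.39 in H1650. For the 10 transporters, including those with fewer sets, it was 0.23 in H1993 and H1693 and 0.74 in H1650. These medians differ in the number of sets a gene needed, so they are not directly comparable.

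SLC31A1, the main copper importer, moved in opposite directions in H1693 and H1650. It gave 9.86 and 9.82 in H1693 KD, against 9.0 and 8.97 in H1693 controls, a rise of 0.86 (SE 0.10, limma adjusted p = 0.000181) or 1.81-fold. It read 8.48 and 8.81 in H1650 KD, against 10.05 and 10.01 in H1650 controls, a change of -1.38 (adjusted p = 4e-06). The arrays of the groups did not overlap in either line. In H1993 KD it gave 10.24 and 10.30, against 10.02 and 10.18 in H1993 controls, a change of 0.17 (95% interval -0.06 to 0.40, adjusted p = 0.249). Both H1993 KD arrays were above both controls, but the difference did not pass. Of its 4 probe sets, 2 rose in H1693 (0.86 and 1.05) and the other 2 were at 0.32 and 0.54 without passing. The set at 0.54 is the most variable one, so with that choice the H1693 change did not pass. In H1650 its probe sets changed by -2.62, -1.38, -0.42 and 0.44, all past the threshold, so their directions disagreed within that line.

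SLC31A2, the related endosomal protein, fell in H1993, where SLC31A1 did not pass. It gave 8.70 and 8.82 in H1993 KD, against 9.30 and 9.30 in H1993 controls, a change of -0.55 (SE 0.08, adjusted p = 0.000571). The 2 H1993 KD arrays were the lower ones, and 3 of its 4 probe sets fell, by 0.74, 0.55 and 0.50 on the log2 scale, while the dimmest stood at 0.03. The H1693 KD arrays read 8.61 and 8.80, against 8.83 and 8.85 in H1693 controls, a change of -0.13 (95% interval -0.31 to 0.05, adjusted p = 0.25), and its 4 probe sets stood between -0.26 and -0.13 without passing. The H1650 KD arrays read 10.96 and 10.88, against 10.39 and 10.47 in H1650 controls, a rise of 0.49 (adjusted p = 0.000605). Other H1650 probe sets changed by -1.11, -0.23 and 0.14, and the mean of all 4 changed by -0.18. SLC31A1 and SLC31A2 lie near each other on chromosome 9, with FKBP15 the protein-coding gene between them in the RefSeq table.

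ATP7A, the copper exporter whose loss causes Menkes disease, rose in every line. It gave 9.72 and 9.67 in H1993 KD, against 8.45 and 8.55 in H1993 controls, a rise of 1.20 (SE 0.08, adjusted p = 5.99e-06) or 2.29-fold. The H1693 KD arrays read 8.72 and 8.64, against 8.17 and 8.04 in H1693 controls, a rise of 0.57 (adjusted p = 0.000472) or 1.49-fold. Signals of 9.47 and 9.52 were found in H1650 KD, against 8.41 and 8.58 in H1650 controls, a rise of 1.00 (adjusted p = 7.14e-06). The KD arrays were above the controls in all 3 lines without overlap. Its dimmer probe set rose by 0.56 in H1993 and stood at 0.05 in H1693 and -0.12 in H1650, neither past the threshold.

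ATP7B, the exporter of liver and other epithelia whose loss causes Wilson disease, rose in H1993 and H1650. It gave 8.01 and 8.00 in H1993 KD, against 7.28 and 7.35 in H1993 controls, a rise of 0.69 (SE 0.09, adjusted p = 0.000303). It read 8.73 and 8.80 in H1650 KD, against 7.15 and 7.43 in H1650 controls, a rise of 1.48 (adjusted p = 1.46e-06) or 2.78-fold. Neither comparison showed overlap. In H1693 KD it gave 8.34 and 8.44, against 8.65 and 8.58 in H1693 controls, a change of -0.22 (adjusted p = 0.0935) in which the KD arrays were the lower ones but the difference did not pass. These values rest on 1 probe set: the second tested one lay at 4.52 to 5.20 and changed by -0.09, 0.04 and 0.12 in H1993, H1693 and H1650, and with the mean of all sets the H1993 change was 0.17 and did not pass.

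Among the ABCC exporters ABCC5, which carries cyclic nucleotides and nucleotide analogues, rose in all 3 lines and had the largest change of the 10 transporters in H1993. It gave 10.58 and 10.56 in H1993 KD, against 9.30 and 9.27 in H1993 controls, a rise of 1.29 (SE 0.07, adjusted p = 1.64e-06) or 2.44-fold. The H1693 KD arrays read 10.33 and 10.38, against 10.05 and 9.94 in H1693 controls, a rise of 0.36 (adjusted p = 0.00276) or 1.28-fold. The H1650 KD arrays read 10.20 and 10.28, against 9.25 and 9.33 in H1650 controls, a rise of 0.95 (adjusted p = 3.42e-06). The KD arrays were the higher ones throughout. Of its 4 probe sets 3 rose in H1993, at 0.65 to 1.29, with the last at 0.23. In H1693 the brightest alone passed, and the others lay between -0.08 and 0.38.

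ABCC2, an apical exporter of conjugates that has been linked to cisplatin export as a glutathione conjugate, also passed in all 3 lines. It gave 12.63 and 12.45 in H1993 KD, against 12 and 11.92 in H1993 controls, a rise of 0.58 (SE 0.09, adjusted p = 0.000657), and its other probe set rose by 0.73. Both H1650 KD arrays read 9.01, against 7.85 and 7.70 in H1650 controls, a rise of 1.23 (adjusted p = 3.1e-06), where its other set stood at 0.16. In H1693 the signal was at the floor: 5.15 and 5.0 in H1693 KD, against 4.55 and 4.54 in H1693 controls, a difference of 0.53 (adjusted p = 0.00118). The other probe set, brighter in H1693 at 6.28 to 6.67, changed by -0.18 without passing, and the mean of both sets changed by 0.18 and did not pass.

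ABCC3, a basolateral exporter of glucuronides and bile salts, rose in H1993 and H1650 by its brightest probe set. It gave 11.09 and 11.14 in H1993 KD, against 10.44 and 10.48 in H1993 controls, a rise of 0.65 (SE 0.13, adjusted p = 0.00391). It read 9.83 and 9.98 in H1650 KD, against 9.12 and 9.24 in H1650 controls, a rise of 0.73 (adjusted p = 0.00119). The groups did not overlap in these lines, but the second probe set differed from the first: it stood at -0.16 in H1993 without passing and at -0.87 in H1650, past the threshold. With the mean of both sets the H1993 change was 0.25 and did not pass, and the H1650 change was -0.07. In H1693 the brightest set read 4.51 and 4.18 in KD cells, against 4.68 and 4.32 in controls, with overlap, and the second set, at 5.01 to 5.51, changed by -0.39 (adjusted p = 0.0412).

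ABCC4, an exporter of cyclic nucleotides, prostaglandins and nucleotide analogues, fell in H1693. It gave 7.01 and 7.07 in H1693 KD, against 8.02 and 7.90 in H1693 controls, a change of -0.92 (SE 0.09, adjusted p = 6.85e-05). All 4 of its probe sets fell there, by 0.60 to 0.92 on the log2 scale, and the KD arrays were below the controls. In H1993 KD it gave 7.60 and 7.36, against 7.62 and 7.58 in H1993 controls, a change of -0.12 (95% interval -0.33 to 0.09, adjusted p = 0.382), with 1 KD array level with the controls. In H1650 KD it gave 8.49 and 8.51, against 7.89 and 8.06 in H1650 controls, a rise of 0.53 (adjusted p = 0.000952). Its H1650 probe sets split, 2 higher (0.53 and 0.59) and 2 lower (-0.62 and -0.75), with a mean change of -0.07.

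ABCC1, the first multidrug resistance protein described and a broad exporter of glutathione conjugates, passed only in H1650 by its brightest probe set. It gave 9.0 and 8.88 in H1993 KD, against 8.97 and 8.94 in H1993 controls, a change of -0.02 (95% interval -0.20 to 0.17, adjusted p = 0.92). In H1693 KD it gave 10.51 and 10.61, against 10.47 and 10.36 in H1693 controls, a change of 0.14 (95% interval -0.04 to 0.33, adjusted p = 0.221). The groups overlapped in H1993 and not in H1693. In H1650 KD it gave 12.28 and 12.28, against 11.71 and 11.89 in H1650 controls, a rise of 0.48 (adjusted p = 0.000747), while another of its sets changed by -0.50 and the mean of its sets by -0.03. The dimmest set rose by 0.48 in H1693 (adjusted p = 0.0298), the one ABCC1 call outside H1650.

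ABCG2 rose in H1993 and H1650 by both of its probe sets. It gave 12.62 and 12.54 in H1993 KD, against 11.93 and 11.92 in H1993 controls, a rise of 0.66 (SE 0.09, adjusted p = 0.000464) or 1.58-fold. In H1650 KD it gave 11.76 and 11.68, against 10.84 and 11.08 in H1650 controls, a rise of 0.76 (adjusted p = 9.7e-05). The second set rose by 0.59 in H1993 and by 0.37 in H1650, and KD arrays were above controls without overlap in both lines. In H1693 the brightest set read 4.60 and 4.62 in KD cells, against 4.79 and 4.60 in controls, all below the floor. Probe sets of ABCC1, ABCC3, ABCC4 and ABCC5 whose names end in _s_at can, in the maker's naming, match transcripts of more than 1 gene, and what else they read was not tested.

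**Figure D2:**
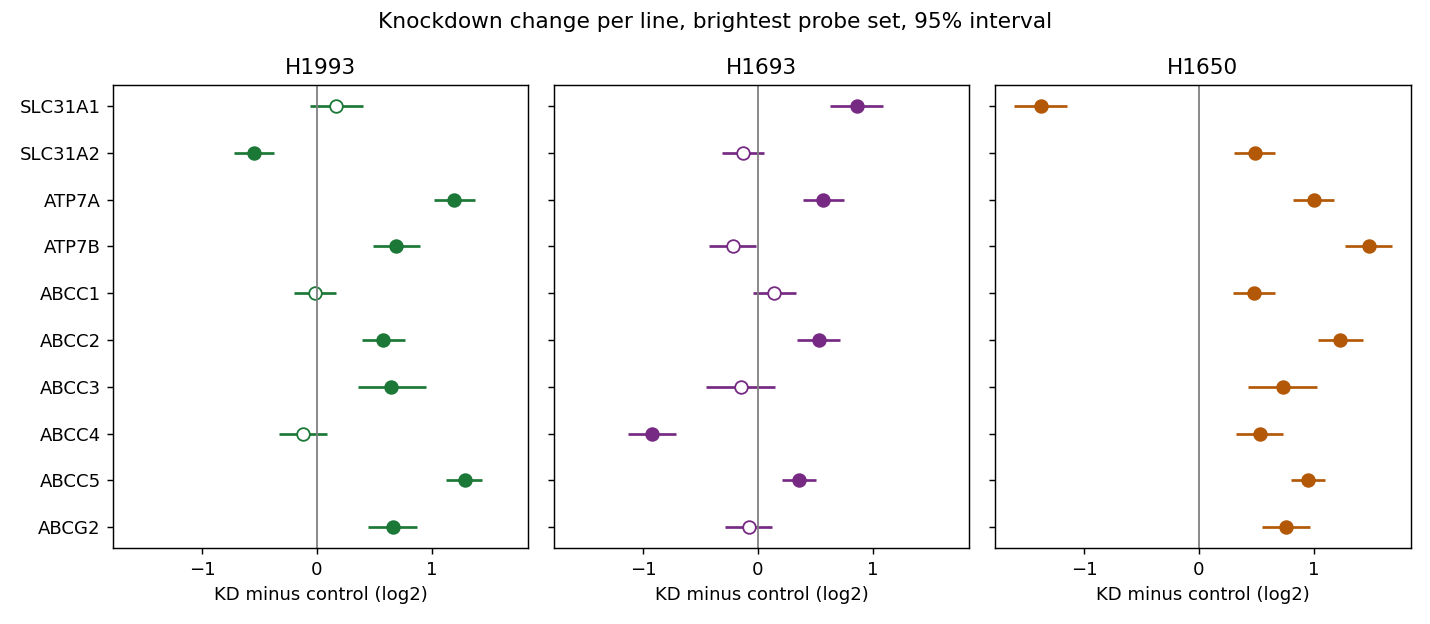
Knockdown change (KD minus control, log2) of each transporter's brightest probe set in H1993, H1693 and H1650, with its 95% interval from limma; filled points passed an adjusted p of 0.05. ATP7A and ABCC5 are above 0 in all 3 lines, SLC31A1 is at 0.86 in H1693 and -1.38 in H1650, and ABCC4 is at -0.92 in H1693.

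**Figure D3:**
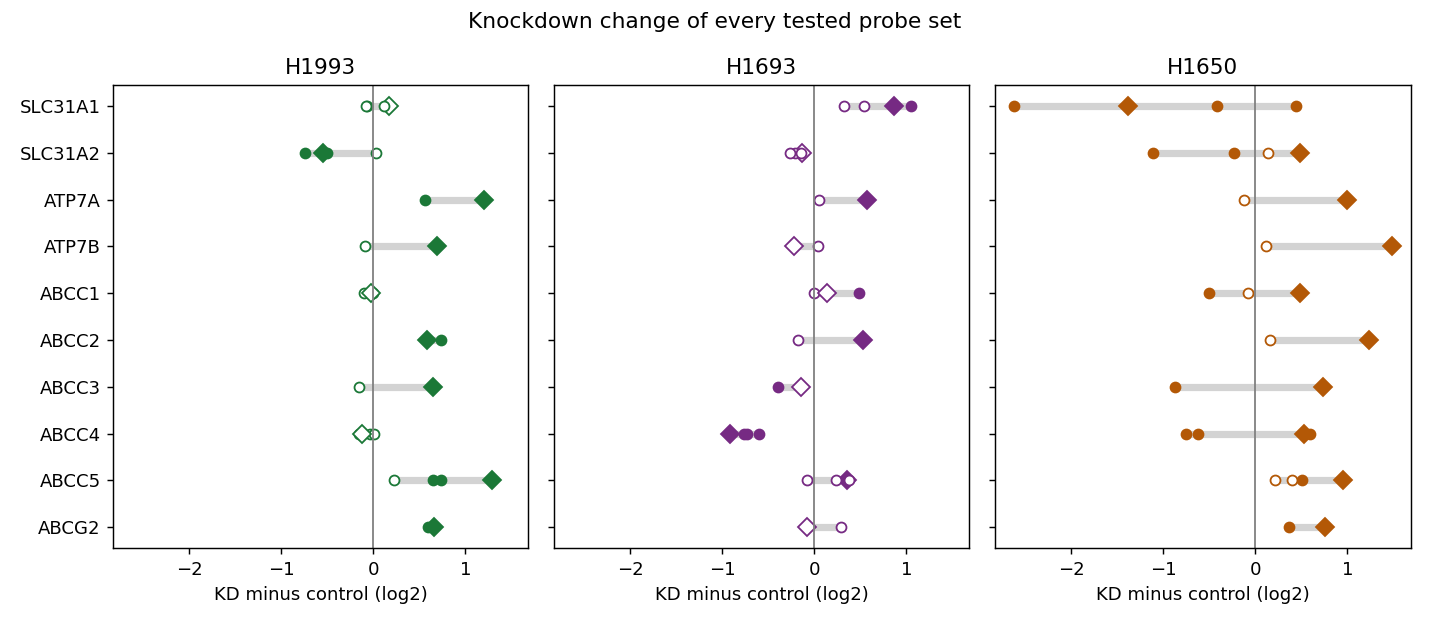
Knockdown change (KD minus control, log2) of each of the 29 tested transporter probe sets by gene and line, with the brightest set of a gene as a diamond, filled marks for sets that passed and a grey bar over the range. The bars are long in H1650, where the 4 SLC31A1 sets run from -2.62 to 0.44, and in H1693 all 4 ABCC4 sets lie below 0.

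The change after knockdown was then compared between H1993 and H1693, the lines in which MARK2 fell. The difference of the changes passed for 8 of 10 transporters, 6 higher and 2 lower in H1993, beside 22.1% of all genes, 12.6% higher and 9.48% lower. The change in H1993 minus that in H1693 was 0.93 for ABCC5 (adjusted p = 0.000186) and 0.91 for ATP7B (adjusted p = 0.001). For ABCC3 it was 0.81 (adjusted p = 0.0134), for ABCG2 0.74 (adjusted p = 0.00336) and for ATP7A 0.62 (adjusted p = 0.00397). It was 0.80 for ABCC4 (adjusted p = 0.00232), which changed by -0.92 in H1693 and, without passing, by -0.12 in H1993. The brightest ABCC3 and ABCG2 sets were below the floor on all H1693 arrays, so their differences set a measured change in H1993 against one that could not be read in H1693. Their second sets, at or near 5 in H1693, differed by 0.23 and 0.30 without passing, in a fit where 17.3% of all probe sets passed. With the most variable probe set for each gene, 5 of the 10 transporters passed, all higher in H1993, and the SLC31A1 call was lost at -0.62. SLC31A1 and SLC31A2 had lower changes in H1993, SLC31A1 by -0.69 (adjusted p = 0.008) and SLC31A2 by -0.41 (adjusted p = 0.0271). The SLC31A2 call was lost with the replicate block (-0.41), with the mean of its sets (-0.25), with its most variable set (-0.29) and when any 1 of these 6 arrays was left out (-0.42 to -0.32): H1993 KD replicate 1, H1693 KD replicate 2 and each control array of H1993 and H1693. For ABCC1 the difference was -0.16 (adjusted p = 0.387) and for ABCC2 it was 0.05 (adjusted p = 0.827), neither past the threshold. The ABCC2 value rests on a set that lay below the floor in H1693 controls. The other ABCC2 set, above the floor in H1693, differed by 0.91 and passed among the probe sets tested (adjusted p = 0.00373). Tested over the 3 lines together, all 10 transporters differed in their change between lines, beside 54.9% of all genes.

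Without knockdown, the lines differed most in ABCC2, ABCC3 and ABCG2. ABCC2 averaged 11.96 in H1993 controls, 4.54 in H1693 controls and 7.78 in H1650 controls (log2 signal, n = 2 each). By this set it was at least 125-fold higher in H1993 than in H1693 and at least 6.86-fold higher in H1650 than in H1693, with a log2 signal of 5 taken as the bound for H1693. Its other set, above the floor in H1693 controls at 6.32 and 6.67, gave log2 differences of 3.55 for H1993 minus H1693 and -0.41 for H1693 minus H1650, both smaller than those bounds. ABCG2 averaged 11.92 in H1993 controls, 4.70 in H1693 controls and 10.96 in H1650 controls, so by this set it was at least 121-fold higher in H1993 and at least 62.2-fold higher in H1650 than in H1693. Its other set gave smaller log2 differences, 4.78 for H1993 minus H1693 and -1.72 for H1693 minus H1650. ABCC3 averaged 10.46, 4.50 and 9.18 in H1993, H1693 and H1650 controls, at least 44.1-fold higher in H1993 and at least 18.1-fold higher in H1650 than in H1693 by its brightest set. The other set gave 3.42 for H1993 minus H1693 and -2.94 for H1693 minus H1650 on the log2 scale. All 6 fitted differences behind these bounds passed, with adjusted p between 4.92e-12 and 1.06e-09. The brightest ABCC3 and ABCG2 sets reached the floor through H1993 and H1650 alone. Their passes against H1693 thus add no separate support for a difference. Both probe sets of each gene gave the same order, H1993 above H1650 above H1693, with all neighbouring differences past the threshold, in fits where 63.0%, 65.2% and 64.1% of all probe sets passed for H1993 minus H1693, H1993 minus H1650 and H1693 minus H1650.

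ABCC1 ran the other way. It averaged 8.96 in H1993 controls, 10.41 in H1693 controls and 11.80 in H1650 controls, with differences of -1.46 for H1993 minus H1693 (adjusted p = 9.67e-08), -2.84 for H1993 minus H1650 (adjusted p = 8.57e-10) and -1.39 for H1693 minus H1650 (adjusted p = 1.72e-07). All 3 of its probe sets were lower in H1993 than in H1693. Against H1650 they split, with 2 sets lower and 1 higher in each of H1993 and H1693.

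**Figure D4:**
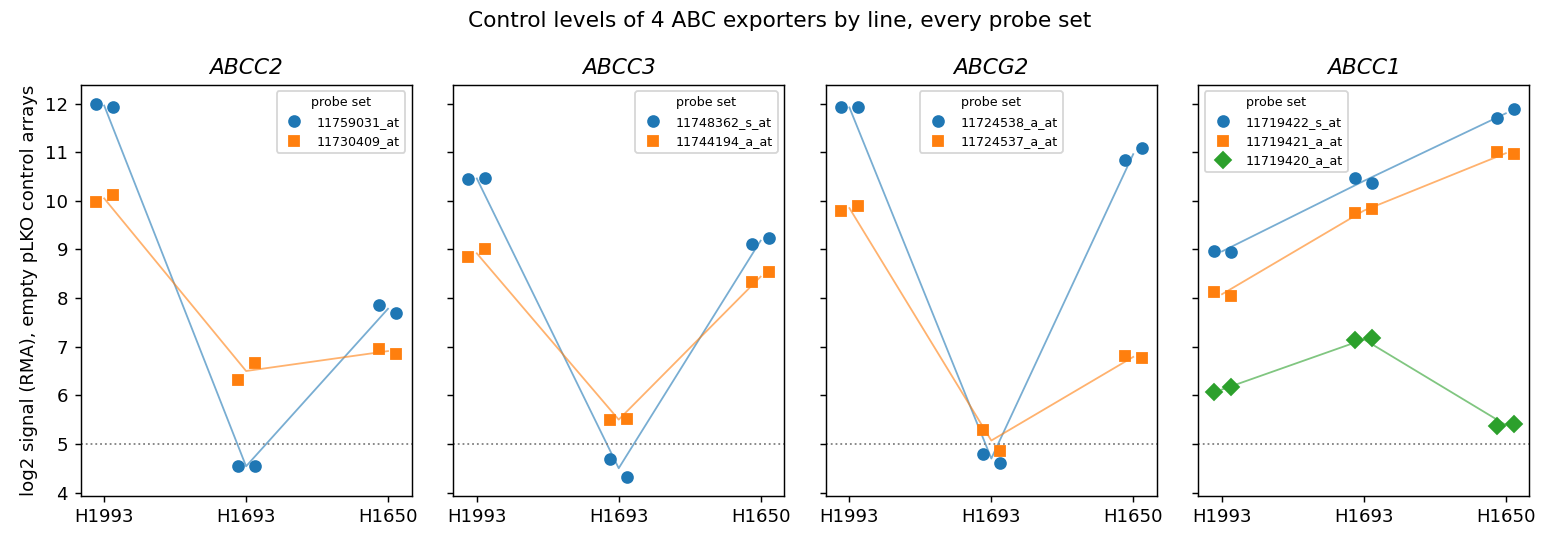
Log2 signal of every tested probe set of ABCC2, ABCC3, ABCG2 and ABCC1 on the empty vector control arrays of H1993, H1693 and H1650, with 2 arrays a line. ABCC2, ABCC3 and ABCG2 are highest in H1993 and lowest in H1693, while the brightest ABCC1 set is lowest in H1993 at 8.96 and highest in H1650 at 11.80.

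The copper transporters differed less between the control cells. SLC31A1 was higher by 1.12 in H1993 than in H1693 (adjusted p = 4.03e-06) and H1693 minus H1650 was -1.04 (adjusted p = 7.58e-06), or 0.25 with its most variable set, and H1993 minus H1650 was 0.07 (95% interval -0.15 to 0.30, adjusted p = 0.561). ATP7B had the reverse order: H1993 minus H1693 was -1.30 (adjusted p = 5.11e-07), H1693 minus H1650 was 1.33 (adjusted p = 5.4e-07), and H1993 and H1650 differed by 0.02 (95% interval -0.18 to 0.23, adjusted p = 0.835). H1693 controls thus had the lowest SLC31A1 and the highest ATP7B of the 3 lines, each by its brightest probe set. ATP7A differed by 0.39 for H1993 minus H1693 (adjusted p = 0.00152) and by -0.39 for H1693 minus H1650 (adjusted p = 0.00161), while the 95% interval of H1993 minus H1650 ran from -0.18 to 0.18 (adjusted p = 0.991). SLC31A2 was 0.46 higher in H1993 than in H1693 (adjusted p = 0.000463), and its values against H1650, -1.13 for H1993 and -1.59 for H1693, turned round with another choice of probe set, to 1.83 and 1.76 with the most variable one.

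For ABCC4 and ABCC5 the control levels depended on the probe set. By its brightest set ABCC4 differed by -0.36 for H1993 minus H1693 (adjusted p = 0.00654, lost at -0.30 without H1693 control replicate 1), -0.37 for H1993 minus H1650 (adjusted p = 0.00506) and -0.02 for H1693 minus H1650 (95% interval -0.22 to 0.19, adjusted p = 0.898). ABCC5 differed by -0.71 for H1993 minus H1693 (adjusted p = 5.95e-06), -0.01 for H1993 minus H1650 (95% interval -0.16 to 0.15, adjusted p = 0.953) and 0.70 for H1693 minus H1650 (adjusted p = 7.01e-06). The other ABCC4 sets stood between -1.40 and -0.37 for H1993 minus H1693 and between -1.07 and 0.60 for H1993 minus H1650. For ABCC5 H1993 minus H1650, the other 3 sets passed higher at 2.17, 0.95 and 0.88, and the brightest set's value became 0.29 with quantile normalisation and 0.30 with median centring. The ABCC5 probe sets disagreed for H1993 minus H1693, where 2 passed lower and 1 higher, and agreed for H1693 minus H1650, where all 4 were higher in H1693. In all, 10 of 10 transporters passed for H1993 minus H1693, 6 higher and 4 lower, beside 63.0% of all genes, 30.1% higher and 32.9% lower. For H1993 minus H1650, 6 of 10 passed, 3 higher and 3 lower, beside 63.8% of all genes, 23.7% higher and 40.1% lower. For H1693 minus H1650, 9 of 10 passed, 2 higher and 7 lower, beside 63.0% of all genes, 24.5% higher and 38.5% lower. Both counts against H1693 include ABCC3 and ABCG2, whose brightest sets reached the floor through H1993 and H1650 alone.

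Over the 6 group means the widest ranges were those of ABCC2 (8.00 on the log2 scale), ABCG2 (7.97) and ABCC3 (6.77), and the other 7 spanned 1.29 (ABCC5) to 3.34 (ABCC1). The genes whose signal followed theirs most closely over the 12 arrays, by Pearson correlation, were KYNU (0.998), TBK1 (0.997) and DCLK1 (0.996) for ABCC2. For ABCG2 they were SLC12A8 (0.999), SQOR (0.997) and NHS (0.997), and for ABCC3 they were PLCE1 (0.997), MSANTD4 (0.997) and ABCG2 (0.996). The 12 arrays come from 3 lines, so these values mainly describe a shared order of the lines.

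Other genes of copper handling, drug export and platinum transport were taken from lists and read in the same fits, and the share of all genes that passed in each line stands above. Of 14 other copper handling genes, 6 rose and 2 fell in H1993, 5 rose and 3 fell in H1693, and 9 rose in H1650, with median changes of 0.09, 0.05 and 0.19. STEAP4, a metalloreductase that reduces copper and iron before uptake, changed by 2.19 in H1993 (adjusted p = 1.07e-06) and by 0.52 in H1650 (adjusted p = 0.00251), although its H1650 sets ran from -0.52 to 0.52. In H1693 it read 5.05 and 5.18 in KD cells, against 4.22 and 3.98 in controls, which lay below the floor, and its sets there ran from 0.05 to 1.01 (adjusted p = 9.26e-05 for the brightest). Its relative STEAP2 rose by 1.23, 0.28 and 1.32 in H1993, H1693 and H1650. MTF1, the metal-responsive transcription factor of metallothionein genes, rose by 0.67, 0.36 and 0.72, with its H1650 sets between -0.25 and 0.72. SLC11A2 (DMT1), an iron and divalent metal carrier, rose by 0.71 in H1993 and by 0.48 in H1693.

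Of 10 metallothioneins tested, small metal-binding proteins whose near-identical family members can share probes, 1 rose in H1993, 1 in H1693 and 2 in H1650. MT1F rose in each line by its brightest set, by 0.32 in both H1993 and H1693 and by 0.66 in H1650. Its other set stood at 0.12 in H1993, 0.32 in H1693 and 0 in H1650. Of 10 other ABC transporters tested, 3 rose and 1 fell in H1993, 1 rose in H1693 and 1 in H1650. ABCC10, a further multidrug resistance protein, rose in all 3 lines: the change was 0.64 in H1993 (adjusted p = 0.00474), 0.56 in H1693 (adjusted p = 0.0102) and 0.83 in H1650 (adjusted p = 0.000591). In H1993 the chloride channel CFTR rose by 0.70 and the sterol exporter ABCG1 changed by -1.23. ABCB1 (P-glycoprotein), named after its values were seen, changed by 0.07, -0.11 and -0.01 in H1993, H1693 and H1650 and passed in none (adjusted p = 0.728, 0.543 and 0.939).

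Of 10 other platinum routes tested, which are organic cation carriers and subunits of the LRRC8 volume-regulated anion channel, 3 rose and 1 fell in H1993, 2 rose and 2 fell in H1693, and 5 rose and 2 fell in H1650. SLC22A4, an organic cation and ergothioneine carrier, rose by 1.48 in H1993 (adjusted p = 9.34e-07), by 0.21 in H1693 (adjusted p = 0.047, not passed at 0.0546 with the floor at log2 4 or at 0.0573 with none) and by 1.36 in H1650 (adjusted p = 5.97e-07). LRRC8A, the obligatory channel subunit, rose by 0.71, 0.47 and 0.67 in H1993, H1693 and H1650. LRRC8B changed by -0.73, -0.60 and -0.88 in the same lines, all past the threshold. In H1650 the sets of both genes differed in sign, from -0.08 to 0.67 for LRRC8A and from -0.88 to 0.24 for LRRC8B. LRRC8C changed by -1.49 in H1693, with all 3 of its sets between -1.49 and -0.86.

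Of 9 transcription regulators of transporter genes tested, 2 rose in H1993, 3 rose in H1693, and 5 rose and 2 fell in H1650. PPARA, a lipid-sensing nuclear receptor, rose by 1.37, 1.77 and 1.17 in H1993, H1693 and H1650 by its brightest set, while its 9 sets ran from -0.13 to 1.37 in H1993, from -0.29 to 1.77 in H1693 and from -1.31 to 1.17 in H1650. AHR, the aryl hydrocarbon receptor, rose by 1.26 in H1693 and 1.11 in H1650, and its partner ARNT rose by 0.67 in H1993 and 0.39 in H1693. Of 8 targets of the oxidative stress factor NRF2 tested, 5 rose and 2 fell in H1993, 3 rose and 1 fell in H1693, and 5 rose and 1 fell in H1650. GCLC, the catalytic subunit of the first enzyme of glutathione synthesis, rose by 0.38, 0.46 and 0.64 in H1993, H1693 and H1650. Its sets ran from 0.11 to 0.38, from 0.08 to 0.46 and from 0.10 to 0.69 in these lines. The other subunit of that enzyme, GCLM, named after its values were seen, changed by -0.27, -0.40 and 0.30 in H1993, H1693 and H1650, all past the threshold. The cystine carrier SLC7A11 rose by 1.18 in H1693, where its sets ran from 0.21 to 1.18. The haem oxygenase HMOX1 changed by -0.43 in H1993 and -1.51 in H1650. AKR1B10 rose by 0.70 in H1993 and by 0.65 in H1650, and lay below 5 on all H1693 arrays.

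**Figure D5:**
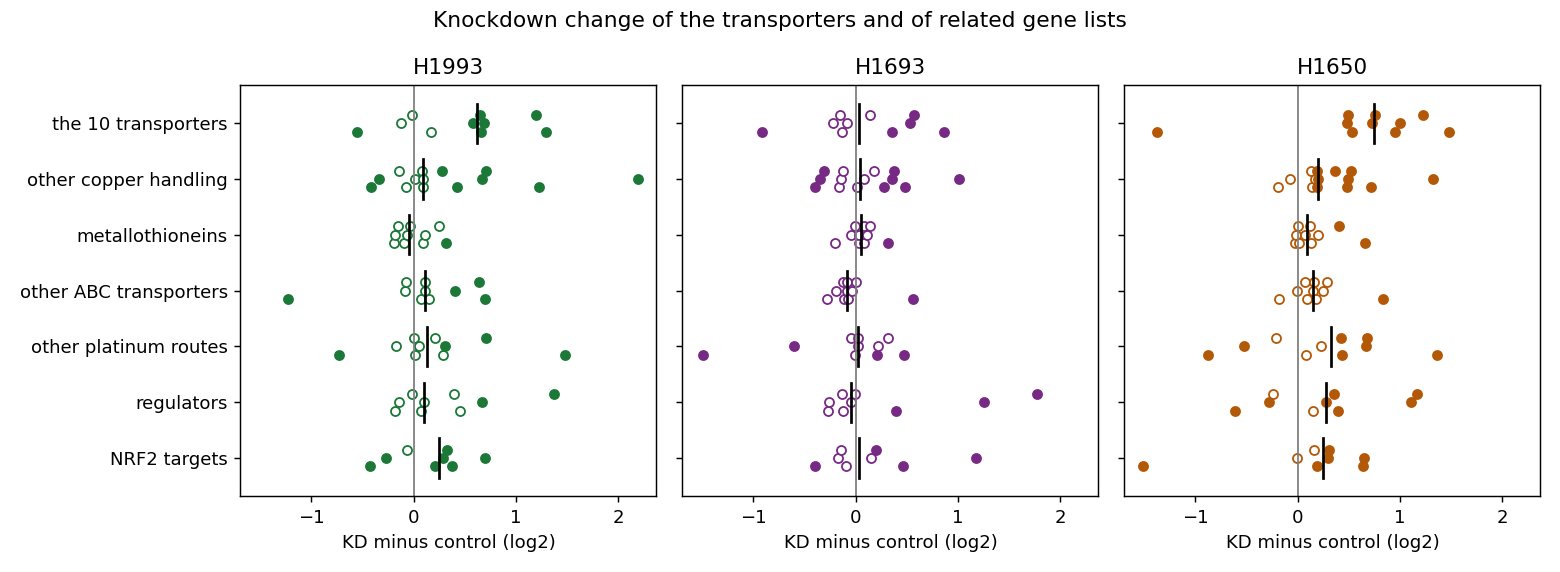
Knockdown change (KD minus control, log2) of each tested gene of the 10 transporters and of 6 lists, by line, with the list median as a black line and filled points for genes that passed. The transporter medians are 0.62 in H1993, 0.03 in H1693 and 0.74 in H1650, beside medians of all genes of 0.02, -0.02 and 0.15.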

How the data were processed

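Biotin-labelled cRNA from 6 groups of cells was read on PrimeView arrays, 2 a group, per the labels. The deposited table holds log2 signals. Per the submitters' processing notes, the authors used Affymetrix Expression Console and RMA, whose versions the sources used here do not give. RMA corrects background, normalises arrays to one distribution and summarises probes, so weak signals understate differences, and the number of arrays limits precision. Array medians ran from 7.13 to 7.32. Arrays of 1 group shared the same value in 0.053% to 0.099% of probe sets, so none was a duplicate.

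Of 49395 probe sets, 44994 had 1 gene symbol in the platform annotation, 1832 several and 2569 none, and 44961 matched a gene ID in the RefSeq table. The brightest probe set by mean stood for a gene, and genes with fewer than 2 arrays at log2 5 were not tested. One mean per group was fitted with limma 3.58.1 in R 4.3.3 (lmFit, eBayes, 6 residual degrees of freedom, prior 3.52 for genes and 3.92 for probe sets). All p-values are two-sided and Benjamini-Hochberg adjusted, the threshold is 0.05, and intervals are 95%. The fits were also run on simulated data with independent normal noise. That run did not model the RNA integrity difference of H1650, and no result here rests on it. Transporters and lists were chosen with earlier results of these data known. The genes named are all 10 transporters, MARK2, up to 4 genes past the threshold with the largest change in a line from each list, and the 3 genes most correlated with each of the 3 transporters of widest range. ABCB1 and GCLM are named outside this rule, chosen after their values were seen. Alternatives changed the floor, normalisation, arrays in the fit, variance model, array weights, replicate block, probe set choice and arrays left out.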

Additional observations from a re-analysis of the deposited data

Results flagged for a closer look

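Each result here is a knockdown change that differed between lines by a test of the difference itself. Over the 3 lines (limma F test), the adjusted p was 9.03e-06 for SLC31A1, 0.000172 for SLC31A2, 0.00324 for ATP7A and 2.2e-05 for ATP7B. It was 0.0124 for ABCC1, 0.00149 for ABCC2, 0.005 for ABCC3, 6.05e-05 for ABCC4, 0.00012 for ABCC5 and 0.000857 for ABCG2. MARK2, the targeted gene, also differed (adjusted p = 0.000182). These tests include H1650, where RNA integrity and the hairpin cannot be told apart. The ABCC2 test uses a set at the floor in H1693, with controls below it at 4.55 and 4.54. Over all genes, 54.9% passed this F test and 22.1% passed the difference in change between H1993 and H1693.

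Between H1993 and H1693 alone, the adjusted p of the difference in change was 0.008 for SLC31A1 and 0.0271 for SLC31A2, whose changes were lower in H1993. The SLC31A2 call was lost with the replicate block and when any 1 of 6 arrays was left out. The adjusted p was 0.00397 for ATP7A, 0.001 for ATP7B, 0.0134 for ABCC3, 0.00232 for ABCC4, 0.000186 for ABCC5 and 0.00336 for ABCG2, whose changes were higher in H1993. The ABCC3 and ABCG2 tests, here and over the 3 lines, use a set below the floor on every H1693 array, where a change could not be read, and their second sets differed between H1993 and H1693 by 0.23 and 0.30 without passing. MARK2 itself fell further in H1993 by 1.08 on the log2 scale (adjusted p = 0.00781), and its part in the other differences was not tested.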

How the results depend on the processing

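The counts of transporters past the threshold stayed within 1.5 times the main count under most alternatives. With the most variable probe set per gene, 3 passed in H1693 (2 higher, 1 lower; 5 in the main fit), and the difference between H1993 and H1693 passed for 5 (8 in the main fit). With array weights, 18 probe sets passed in H1693 (10 higher, 8 lower; 11 in the main fit). Leaving out 1 array at a time gave 7 to 9 probe sets in H1693, with 7 without H1693 KD replicate 1. It gave 7 transporters in H1993, 5 in H1693 and 10 in H1650 each time, 9 to 10, 6 and 9 for the control comparisons, and 7 to 8 for the difference between H1993 and H1693. The SLC31A2 difference was the one lost under several of these, at -0.32 to -0.42.

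Of 1330 values for single transporters under alternatives, 1276 kept direction and side of the threshold, 24 lost and 12 gained a call, and 18 reversed. For the ABCC5 control level H1993 minus H1650 (-0.01) the value became 0.29 with quantile normalisation, 0.30 with median centring, 1.00 with the mean of all sets and 2.17 with the most variable set. Quantile normalisation and centring moved the median of all genes by 0.20 and 0.31 in that contrast, by 0.15 and 0.23 for H1693 minus H1650, and by -0.12 and -0.05 for the H1650 knockdown change. With the mean of all sets, the H1650 changes became -0.18 for SLC31A2, -0.03 for ABCC1, -0.07 for ABCC3 and -0.07 for ABCC4. The control level H1993 minus H1693 became 0.07 for ABCC5, H1993 minus H1650 became 0.33 for SLC31A2, and H1693 minus H1650 became 0.10 for SLC31A2 and 0.35 for ABCC4. With the most variable set, the ABCC5 change in H1693 became -0.08 and the SLC31A2 change in H1650 -1.11. The control level H1993 minus H1693 became 1.24 for ABCC5, H1993 minus H1650 became 1.83 for SLC31A2, and H1693 minus H1650 became 0.25 for SLC31A1 and 1.76 for SLC31A2. Other probe sets of these genes carry those values; why they differ was not tested.

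The main fit did not treat same-numbered arrays as pairs. Deviations of same-numbered arrays in H1993, H1693 and H1650 correlated by 0.29, -0.18 and -0.11. With 2 arrays a group these values cannot settle whether the arrays were paired. With the replicate block, 7, 5 and 10 transporters passed in H1993, H1693 and H1650, 14, 11 and 22 probe sets, 10, 6 and 9 in the control comparisons, 10 over the 3 lines and 7 between H1993 and H1693, where SLC31A2 (-0.41) no longer passed. With the numbers crossed, an alternative added after seeing the data, 5 transporters passed in H1693 and 10 in H1650, with 11 and 21 probe sets. A fit of only the compared lines is not another fit for the test over 3 lines and was not run there.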
